A study of Homo sapiens with 7 samples.

Results

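The red cell membrane skeleton and its glycophorins were followed through 8 genes, SPTB, ANK1, EPB41, EPB42, SLC4A1, GYPB, GYPC and RHAG, chosen by name and matched by symbol to 8 of the 62238 genes on which reads had been counted. The cells were MEG-01, an established human megakaryoblastic leukemia line, harvested in exponential growth, and all libraries were labelled as passage 5 and as carrying lentiviral transgenes. RNA-seq was performed on 1 control library, for which no knockdown was labelled and whose construct was not given, and on 2 stable lines with RBM15 knockdown, 1 expressing shRBM15#1 and 1 expressing shRBM15#2, so that the replicates of the knockdown were different hairpins in selected cell populations. RIP-seq, the sequencing of RNA co-precipitated with an antibody, comprised 2 libraries labelled as normal IgG and 2 labelled as anti-RBM15. The question was how lowering RBM15, an RNA-binding protein found with splicing factors, alters RNA abundance and exon usage.

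The red cell keeps its shape because a lattice of spectrin lies under the membrane and is tied to it at separate kinds of complexes. Ankyrin holds beta spectrin to band 3, the anion exchanger, in a complex that also contains protein 4.2 and the Rh proteins, and protein 4.1 joins the spectrin ends to short actin filaments and to glycophorin C. Inherited loss of spectrin, ankyrin, band 3 or protein 4.2 gives spherocytosis, and loss of protein 4.1 gives elliptocytosis. Some of these genes make different proteins in red cells and in other tissues through alternative exons, among them EPB41, SPTB and ANK1.

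The alternative coding exons of EPB41 are shown because all exon bins of this gene past the study's limits for exon usage belonged to them (below, an exon bin is a piece of an exon between the points where transcripts differ). They lie on the plus strand of chromosome 1 (GRCh37) at chr1:29385101-29385157, chr1:29385323-29385364 and chr1:29386934-29386996, and are 57, 42 and 63 bases long. Each begins in frame and holds whole codons, 19, 14 and 21 of them, in the GENCODE annotation. The 63-base exon encodes part of the domain by which protein 4.1 binds spectrin and actin and is known to be included as red cells mature. Capitals mark the exon and lower case the 20 intron bases on each side.
EPB41 57-base exon: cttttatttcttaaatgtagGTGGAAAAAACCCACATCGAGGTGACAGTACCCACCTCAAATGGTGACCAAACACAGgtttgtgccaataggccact
EPB41 42-base exon: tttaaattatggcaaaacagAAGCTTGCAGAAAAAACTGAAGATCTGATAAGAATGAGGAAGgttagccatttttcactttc
EPB41 63-base exon: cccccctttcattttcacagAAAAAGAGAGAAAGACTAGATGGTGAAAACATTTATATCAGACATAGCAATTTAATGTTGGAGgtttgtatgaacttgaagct

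The end of the SPTB reading frame is shown because the reads of this gene divided there. The long forms of beta spectrin splice out of an exon of 76 bases and stop at chr14:65216024-65216026, in 3 annotated transcripts. The short form, 1 transcript, reads on through the splice site into 66 further coding bases and a TAG stop at chr14:65233375-65233377 (GRCh37, minus strand). The short form is the beta spectrin known from red cells, and the long form, whose tail carries a pleckstrin homology domain, is known from muscle and brain. Lower case marks the shared exon and capitals the bases of the short form, including its stop, of chr14:65233375-65233519.
SPTB short end: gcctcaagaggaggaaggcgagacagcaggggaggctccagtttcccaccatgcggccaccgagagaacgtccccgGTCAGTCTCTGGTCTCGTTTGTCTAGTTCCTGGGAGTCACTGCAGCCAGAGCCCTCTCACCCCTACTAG

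RefSeq promoters (GRCh38.p14) were found for 6 of the 8 genes, 9 entries in all, and none was found for ANK1 and SLC4A1. GATAA, the core of the site bound by the erythroid and megakaryocytic factor GATA1, was searched on both strands (GATAA or TTATC) in the 250 bases before each start. It was found in 4 of the 9 entries, 1 each of SPTB, EPB42, GYPB and RHAG, compared with 20.4% of 35116 promoters of the same length. No match was found in either entry of EPB41, in that of GYPC or in the other entries of SPTB and GYPB. The other GYPB entry overlaps the matched GYPB entry and ends inside its match, so these entries are not independent. The first base of the match nearest the start lay 41 bases before it in SPTB, 60 in EPB42, 38 in GYPB and 31 in RHAG, and EPB42 had a further match 207 bases before it. The 100 bases before these starts are shown with the match in capitals. More reads in both knockdown lines were counted for 7 of the 8 genes, EPB41 without a match among them. A link between matches and changes was not tested.
SPTB: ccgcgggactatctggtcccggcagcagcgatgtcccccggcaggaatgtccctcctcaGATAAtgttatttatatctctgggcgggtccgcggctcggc
EPB42: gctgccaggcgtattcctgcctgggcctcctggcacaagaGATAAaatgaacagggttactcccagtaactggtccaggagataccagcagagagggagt
GYPB: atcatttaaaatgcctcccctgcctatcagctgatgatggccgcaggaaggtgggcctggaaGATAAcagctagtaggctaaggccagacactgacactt
RHAG: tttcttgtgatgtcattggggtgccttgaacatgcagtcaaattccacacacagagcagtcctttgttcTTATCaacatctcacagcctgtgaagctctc
The SPTB window matched GRCh37 once, at chr14:65346626-65346725, just upstream of the distal first exon of the gene. That exon had 0 reads in the control and up to 15 and 10 reads per bin in the shRBM15#1 and shRBM15#2 lines. The proximal first exon, chr14:65289665-65289866, had up to 5, 58 and 36, and the SPTB entry without a match lies upstream of it. The GATAA hits are matches of letters, and binding was not measured.

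Reads on exon bins numbered 41.6 M to 53.2 M per library, and 24887 genes with at least 30 reads in all were tested. The shRBM15#1 library stood apart, with 32.01% of its reads in no bin, compared with 23.2% in control cells and 23.5% with shRBM15#2, and its values are given separately throughout. The control had reads on 410882 bins, and the shRBM15#1 and shRBM15#2 libraries on more, 473473 and 445666. The part of this wider coverage in the changes below was not tested. RBM15 itself had 80.1 CPM (reads scaled to the size of the library) in control cells, 43.6 with shRBM15#1 and 40.6 with shRBM15#2, which is -0.93 on the log2 scale (standard error 0.23, adjusted p = 0.091 from edgeR's quasi-likelihood test with Benjamini-Hochberg adjustment over all genes). Fold changes and adjusted p-values of genes below are from the same fit. With 1 control, the only spread between replicates is that between the 2 knockdown lines. edgeR combines this spread with a trend over all genes, so the error of a gene is not its own spread alone. The spread between control cultures was not measured. In a bulk culture, fewer cells of a type and less RNA per cell cannot be told apart.

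Of the 8 genes, 7 had a higher CPM in both knockdown lines than in the control, and GYPC had a lower one in both, compared with 39.7% of all genes tested that were higher in both and 39.5% that were lower in both. None of the 8 passed an adjusted p under 0.01, which 0.346% of all genes passed, and 7 had an unadjusted p under 0.05, as did 4673 of the 24887 genes. At an adjusted p under 0.05, SLC4A1 and SPTB rose, 2 of 8 against 1.74% of all genes in either direction and 0.534% in the upward direction. The median log2 fold change of the 8 genes was 1.40, compared with 0.017 for all genes tested. With DESeq2, SLC4A1 and GYPB passed an adjusted p under 0.01, which 2.97% of genes with an adjusted p passed in that test. The plot of CPM shows the genes side by side.

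**Figure D1:**
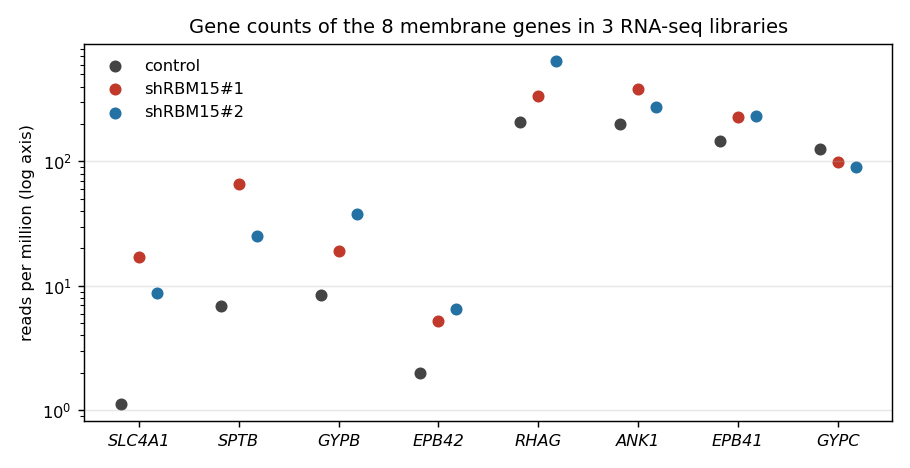
CPM (y, log axis) of the 8 genes (x, ordered by log2 fold change) in the control, shRBM15#1 and shRBM15#2 libraries, 1 point per library. Both knockdown points lie above the control point for 7 genes and below it for GYPC, and SLC4A1 has the largest distance, from 1.13 in the control to 17.2 and 8.76.

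Markers of blood cell types were counted in the same libraries. Of 12 erythroid markers, 11 could be tested, 10 were higher in both lines (39.7% of all genes), and 5 rose at an adjusted p under 0.01 by edgeR, which 0.0683% of all genes did (HBA2, HBG1, HBG2, HBE1 and ALAS2). The summed level of the tested markers was 1278 CPM in control cells, 7614 with shRBM15#1 and 7256 with shRBM15#2. HBA2, HBG1 and HBG2 have near-identical copies and their counts are uncertain. HBB, the adult beta globin, did not pass, at 14.3, 16.3 and 29.7 CPM. Of 10 megakaryocyte markers, 7 could be tested and none passed, with 4 higher in both lines, 2 lower in both and a median log2 fold change of 0.94. Their summed level was 940.2, 511 and 748 CPM, of which ITGA2B had 917, 475 and 606, and without it the other 6 summed to 23.2, 36.8 and 142 CPM. ITGB3 had 6.27, 17.9 and 51.7 CPM and PPBP 2.38, 6.11 and 56.8, while PF4 had 3, 4 and 2 reads and GP9 2, 2 and 5. Of 9 granulocyte and monocyte markers, 6 could be tested, with 3 higher in both lines, 1 lower in both and a median log2 fold change of 0.89. They summed to 147, 73.5 and 94.1 CPM, of which CTSG, which fell, had 95.6, 3.72 and 8.53 (log2 fold change -3.96, adjusted p = 0.0043 by edgeR). Without CTSG the sums were 51.1, 69.7 and 85.6 CPM, and CSF1R, ITGAM and CD14, the markers higher in both lines, had log2 fold changes between 1.23 and 3.12 that did not pass. The 6 lymphoid markers summed to 4.88, 5.82 and 4.63 CPM. The part of these markers' changes in those of the 8 membrane genes was not tested.

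Beta spectrin, the chain that carries the ankyrin site, is encoded by SPTB (ENSG00000070182, chromosome 14 from 65213002 to 65346601, minus strand, GRCh37). The control had 345 reads, the shRBM15#1 line 2941 and the shRBM15#2 line 1313, which is 6.96, 65.6 and 25.1 CPM. Both lines were higher, and the lines lay apart, with log2 fold changes of 3.24 and 1.85. On the log2 scale the fitted change was 2.70 (standard error 0.54, adjusted p = 0.049 by edgeR), a 6.51-fold rise. Its call was lost with DESeq2 (adjusted p = 0.15) and, by edgeR, among genes with at least 300 reads (adjusted p = 0.096).

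Ankyrin-1, which ties spectrin to band 3, is encoded by ANK1 (ENSG00000029534, chromosome 8 from 41510739 to 41754280, minus strand). It had 9937 reads or 200.4 CPM in control cells, 381 CPM with shRBM15#1 and 276 CPM with shRBM15#2. The change was 0.71 on the log2 scale (standard error 0.27, adjusted p = 0.21 by edgeR), which did not pass. EPB41 (ENSG00000159023, chromosome 1 from 29213603 to 29446553, plus strand), encoding protein 4.1, had 147 CPM in control cells and 229 and 234 CPM in the lines. The lines lay close together, but the change of 0.65 on the log2 scale (standard error 0.23, adjusted p = 0.18 by edgeR) did not pass either. EPB42 (ENSG00000166947, chromosome 15 from 43398423 to 43513481, minus strand), encoding protein 4.2, a transglutaminase relative that binds band 3, had 99 control reads, and 234 and 340 reads in the shRBM15#1 and shRBM15#2 lines, which is 2.00, 5.22 and 6.50 CPM. The lines lay close together and above the control, at a fitted value of 1.55 on the log2 scale (standard error 0.41, adjusted p = 0.11 by edgeR), which did not pass.

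Band 3, the chloride and bicarbonate exchanger and the main integral protein of the red cell membrane, is encoded by SLC4A1 (ENSG00000004939, chromosome 17 from 42325753 to 42345509, minus strand). Only 56 reads were counted in control cells, compared with 771 in the shRBM15#1 line and 458 in the shRBM15#2 line, which is 1.13, 17.2 and 8.76 CPM. SLC4A1 had the largest change of the 8 genes, with log2 fold changes of 3.92 and 2.95 in the single lines and a fitted value of 3.52 (standard error 0.53, adjusted p = 0.016 by edgeR), an 11.5-fold rise. Its call was lost among genes with at least 300 reads (adjusted p = 0.054 by edgeR). RHAG (ENSG00000112077, chromosome 6 from 49572871 to 49604552, minus strand), encoding the Rh-associated glycoprotein that brings the Rh proteins to the membrane, had 207 CPM in control cells, 338 with shRBM15#1 and 639.9 with shRBM15#2. Both lines were higher, the second by more, and the change of 1.24 on the log2 scale (standard error 0.37, adjusted p = 0.14 by edgeR) did not pass.

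Glycophorin B, the carrier of the S antigen, is encoded by GYPB (ENSG00000250361, chromosome 4 from 144917257 to 144940498, minus strand). Control cells gave 422 reads, the shRBM15#1 line 850 and the shRBM15#2 line 1961, which is 8.51, 19.0 and 37.5 CPM and 1.73 on the log2 scale (standard error 0.43, adjusted p = 0.094 by edgeR and 0.0029 by DESeq2). GYPB belongs to a family of near-identical copies, so that reads could be split or shared among them and its count is uncertain. Glycophorin C, the partner of protein 4.1 at the membrane, is encoded by GYPC (ENSG00000136732, chromosome 2 from 127413509 to 127454246, plus strand). It went the other way, with 127 CPM in control cells, 99.0 with shRBM15#1 and 89.7 with shRBM15#2, and a change of -0.43 on the log2 scale (standard error 0.22, adjusted p = 0.33 by edgeR) that did not pass.

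As CPM per kilobase of exon bins, RHAG had the highest level of the 8 genes in all libraries, at 108 in control cells and 177 and 335 in the lines. GYPC (39.2), ANK1 (18.6) and EPB41 (17.8) followed in the control, and in the knockdown lines their ranges overlapped, at 27.7 to 30.6, 25.6 to 35.3 and 27.7 to 28.2. GYPB was below them, at 5.44 in control cells and 12.1 and 23.95 in the lines. SPTB, EPB42 and SLC4A1 were the lowest in the control, at 0.471, 0.358 and 0.293 on this scale. SLC4A1 had 4.46 and 2.27 in the lines and SPTB 4.44 and 1.70, ranges that overlapped, whereas EPB42 had 0.936 and 1.17 and was lowest in both lines. The control, with 1 library, gives no spread for this order.

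Of 25 other genes of the red cell membrane on a list, 24 could be tested, and ICAM4 had no reads counted. None passed an adjusted p under 0.01 and 2 passed 0.05, both higher, among them DMTN, compared with 0.534% of all genes in that direction. CPM values were higher in both lines for 14 of the 24 and lower in both for 8 (39.7% and 39.5% of all genes), and the median log2 fold change was 0.40. DMTN, encoding the actin-bundling protein dematin, rose from 23.3 CPM to 88.5 and 58.6 (log2 fold change 1.66, standard error 0.31, adjusted p = 0.038 by edgeR). ACKR1, the Duffy antigen, had the largest value of the list at 2.60 (adjusted p = 0.19 by edgeR), but on 11, 26 and 111 reads, and TMOD1, which caps actin filaments, had 1.75 (adjusted p = 0.14 by edgeR). The adducins ADD1, ADD2 and ADD3, which sit at the spectrin and actin junction, had log2 fold changes of 0.25, 0.04 and -0.04, none past the test.

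**Figure D2:**
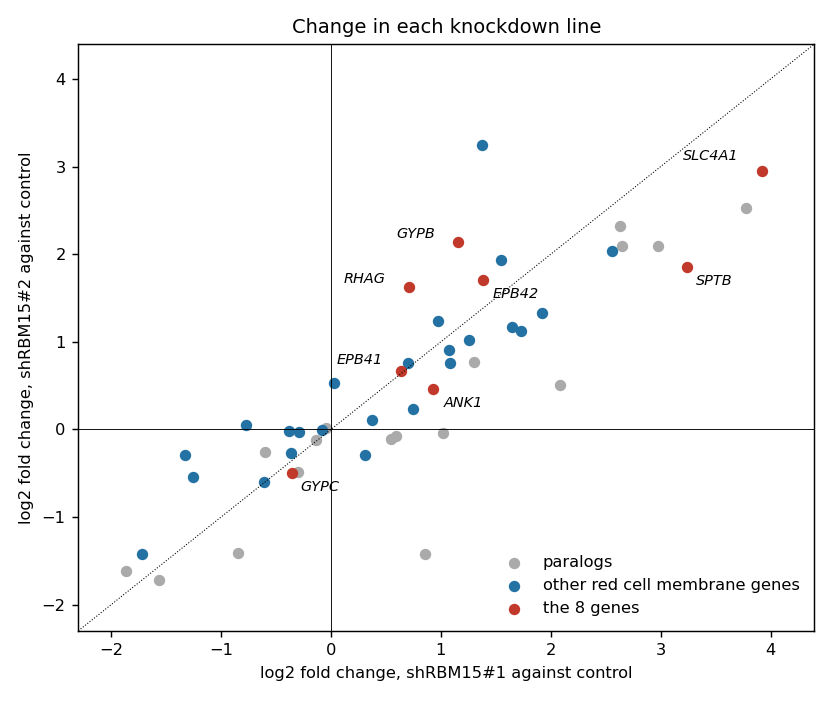
Log2 fold change against the control with shRBM15#1 (x) and with shRBM15#2 (y) for the 8 genes, 24 other red cell membrane genes and 17 paralogs, 1 point per gene, with the dotted line at equal change. SLC4A1 and SPTB lie far to the upper right, at 3.92 and 2.95 and at 3.24 and 1.85, and GYPC lies to the lower left of the origin. Both axes share the control library.

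The 17 paralogs of the 8 genes had a median log2 fold change of 0.26. Among them, 6 were higher in both lines, 6 lower in both and 5 mixed. These shares were near those of all genes (39.7% higher in both and 39.5% lower in both). None passed an adjusted p under 0.01, and 2 passed 0.05, both lower, compared with 1.2% of all genes in that direction. Of these, EPB41L5 fell from 50.4 CPM to 13.8 and 16.5 (log2 fold change -1.73, adjusted p = 0.015 by edgeR). SPTBN1, the general non-erythroid beta spectrin, had 322 CPM in control cells and 212 and 269 CPM in the lines, a value of -0.42 that did not pass. The largest values of the list were on few reads, for EPB41L4B (3.28, with 6, 76 and 37 reads), SPTBN5 (2.60, with 11, 79 and 50), ANK3 (2.48, with 16, 90 and 85) and SLC4A3 (2.40, with 5, 29 and 23), none of which passed.

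The tested genes nearest to SLC4A1 in the pair of single-line log2 fold changes included CDH20 and ACTN3, at Euclidean distances of 0.023 and 0.11, and those nearest to SPTB were SHOX at 0.015 and NEK2-DT and ENSG00000255299 at 0.038 each. This likeness is over 2 values per gene, and each of these genes had under 0.15 CPM in the control.

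Exon usage was examined as the change of each exon bin relative to its gene (edgeR's diffSpliceDGE), on 208 of the 270 bins of the 8 genes that had at least 30 reads. With the study's thresholds (fold over 1.2, p under 0.05 before adjustment), 5 of the 208 bins passed, compared with 1.45% of 234192 bins. All 5 were used more after knockdown, 4 in EPB41 and 1 in EPB42. No bin passed an adjusted p under 0.05, which 0.0205% of all bins passed. In a model of the DEXSeq type, which sets each bin against the rest of its gene and was fitted with DESeq2, 7 member bins passed the same limits (2.13% of all bins), 4 more used (EPB41 bins 021, 022 and 024 and EPB42 bin 014) and 3 less used, all in SPTB (bins 001, 002 and 009). CPM values were higher in both lines in all tested bins of ANK1 (59), EPB41 (34), SLC4A1 (21), GYPB (16), EPB42 (14) and RHAG (11) and in 39 of 40 bins of SPTB, and lower in both lines in 12 of 13 bins of GYPC. Adjacent bins share reads and are not independent.

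The 4 EPB41 bins followed each other and made up the exons printed above, the 57-base exon being divided into bins 021 and 022. Bin 024, the 63-base exon, had 29 control reads, 105 in the shRBM15#1 line and 124 in the shRBM15#2 line. This was 0.398% of the bin reads of the gene in control cells (95% Wilson confidence interval 0.277% to 0.570%), 1.02% with shRBM15#1 (0.844% to 1.23%) and 1.02% with shRBM15#2 (0.853% to 1.21%). The intervals, which cover counting error only, did not overlap between the control and either line. Relative to the gene, the log2 change was 1.35 (standard error 0.32, unadjusted p = 5.6e-04, adjusted p = 0.56 by diffSpliceDGE).

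Bin 022 had 11 control reads, and 46 and 49 reads in the lines (relative log2 fold change 1.47, unadjusted p = 0.0061 by diffSpliceDGE), and bin 021 had 11, 40 and 42 reads (1.26, unadjusted p = 0.021). Bin 023, the 42-base exon, was rare in all libraries, with 3, 22 and 9 reads (1.72, unadjusted p = 0.039), and its share with shRBM15#2, 0.0737%, was within the control's interval of 0.0140% to 0.121%. The constant exons on either side, bins 020 and 026, had relative log2 fold changes of 0.08 and -0.08. For each 100 reads on these 2 exons together, the 63-base exon had 4.52 in control cells, 12.1 with shRBM15#1 and 11.1 with shRBM15#2, and the 57-base exon had 1.72, 5.31 and 4.39. Thus the 63-base and 57-base exons were more used in both lines. These figures are not corrected for length and do not give the rate of inclusion, since bins 020 and 026 have 209 and 177 bases. Coding bins nearer in length, 013 (43 bases) and 014 (76 bases), had 139, 204 and 239 reads and 159, 218 and 245 reads. Both were above the 63-base exon in each library. Bin 008, which follows the upstream start codon used by the larger forms of protein 4.1, had 618, 836 and 1024 reads and a relative log2 fold change of -0.04.

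**Figure D3:**
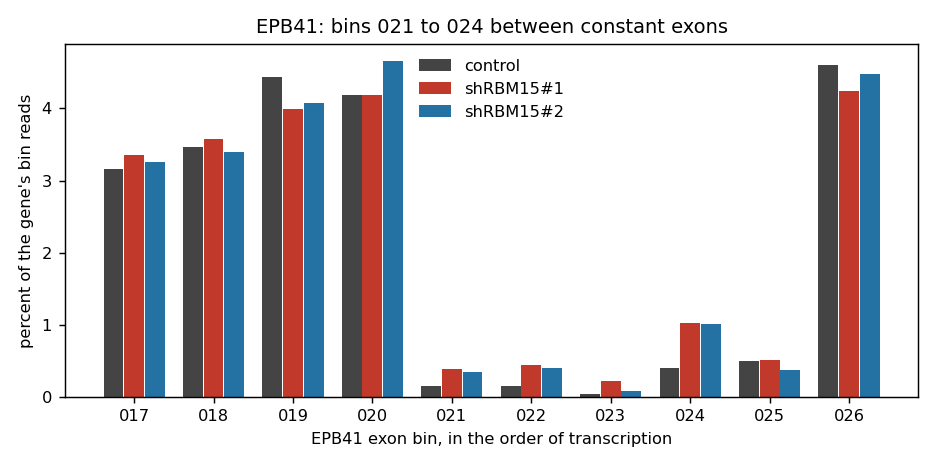
Percent of the EPB41 bin reads (y) in exon bins 017 to 026 (x, in the order of transcription) in the control, shRBM15#1 and shRBM15#2 libraries, 1 bar per library. Bins 021 to 024 are low in all libraries and higher in both knockdown lines, and bin 024 is at 0.398% in the control and 1.02% in each line. The flanking bins 020 and 026 stay above 4% in all libraries. Percents are not corrected for width, which is 63 bases for bin 024 and 209 and 177 bases for bins 020 and 026.

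SPTB had no bin past the study's limits by edgeR, but its reads were divided between the 2 annotated ends, a division that was chosen for description after the values had been seen. The long end is taken here as the 11 bins beyond bin 012, and the bins were not each assigned to a transcript. Bin 011, a single base, adjoins bin 012 and had 0, 0 and 1 reads. The 11 bins held 74 control reads, 115 of the shRBM15#1 line and 77 of the shRBM15#2 line. These were 21.4% of the SPTB reads in control cells (95% Wilson confidence interval 17.4% to 26.1%), 3.91% with shRBM15#1 (3.27% to 4.67%) and 5.86% with shRBM15#2 (4.72% to 7.27%). In CPM, the bins of the long end had 1.49, 2.56 and 1.47, and all other bins together had 5.47, 63.01 and 23.6. The log2 fold changes in the single lines were 0.78 and -0.02 for the long end and 3.53 and 2.11 for the rest. Bin 001 of the long end overlaps another gene, and without it the shares were 16.2%, 2.72% and 4.04%.

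Bin 012, which holds the stop codon of the short form, had 4 control reads, 52 of the shRBM15#1 line and 27 of the shRBM15#2 line, while the coding exons of the long end, bins 005 to 008, had 16, 30 and 13. Without correction for length, the short end was thus counted less than the long coding end in the control and more in both lines. Bin 012 held 1.16% of the SPTB reads in control cells (Wilson interval 0.452% to 2.94%). It held 1.77% with shRBM15#1 (1.35% to 2.31%) and 2.06% with shRBM15#2 (1.42% to 2.98%). These intervals overlapped, so that a rise in its share was not detectable at this depth. For bins 005 to 008 the shares in the same order were 4.64% (2.87% to 7.40%), 1.02% (0.715% to 1.45%) and 0.990% (0.580% to 1.69%). Here the control's interval lay above both others. Of the bins of the long end, 3 had enough reads to test, and their relative log2 fold changes were -2.05 in bin 001, -3.20 in bin 002 and -1.97 in bin 009 (unadjusted p = 0.22, 0.071 and 0.35 by diffSpliceDGE). In the DEXSeq-type model all 3 passed the study's limits, less used, and bin 002 also passed the adjusted p (relative log2 fold change -3.18, adjusted p = 1.3e-04). At the other end of the gene, the distal first exon at chr14:65346510-65346601, bins 051 and 052, had no control reads. The counts of these bins summed to 25 and 16 in the lines, with at most 15 and 10 in a single bin. A read across both bins is counted in each. The 0 of 345 reads allow a share of up to 0.870%. The shares in the lines were 0.850% (Wilson interval 0.576% to 1.25%) and 1.22% (0.751% to 1.97%). Both intervals reach below the control's limit, so that a difference in share was not detectable at this depth.

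**Figure D4:**
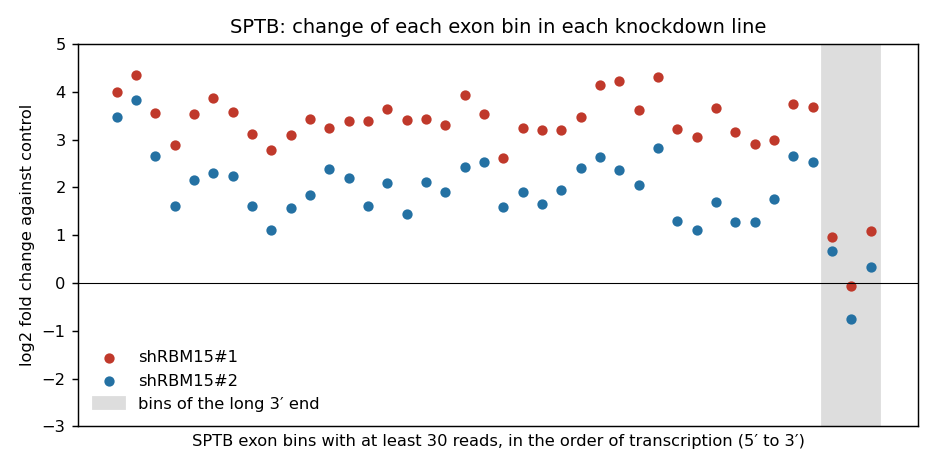
Log2 fold change against the control (y, 0.5 reads added to each count) of the 40 SPTB exon bins with at least 30 reads in all (x, 5′ to 3′), with 1 point per bin for each knockdown line and the 3 bins of the long 3′ end shaded. The other 37 bins lie above 0 in both lines, whereas the shaded bins lie between -0.75 and 1.08.

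EPB42 had 1 bin past the study's limits, bin 014, a coding bin at chr15:43498528-43498679. It had 0 of 99 reads in the control, which allows a share of up to 3.03%, and 11 and 22 reads in the lines, shares of 4.70% (95% Wilson confidence interval 2.64% to 8.22%) and 6.47% (4.31% to 9.60%). The relative change had an unadjusted p of 0.0038 and an adjusted p of 1 by diffSpliceDGE, and no fold is given against a count of 0. None of the tested bins of SLC4A1 (21), GYPB (16), GYPC (13) or RHAG (11) passed. The relative log2 fold changes of RHAG bins lay between -0.08 and 0.15 and those of GYPC bins between -0.24 and 0.20.

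ANK1, which has alternative first exons, showed no bin past the limits among 59 tested, with relative log2 fold changes between -0.39 and 0.60 and a smallest unadjusted p of 0.59. Among its annotated first exons, most reads were on the proximal one, on chromosome 8 from 41655030 to 41655140 (GRCh37, minus strand), with up to 115, 167 and 160 reads per bin. The distal first exon, from 41753873 to 41754280, had 0, 1 and 0 reads. A single exon from 41646400 to 41646815, which lies between these and the next exon, had 33, 52 and 53 reads.

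RIP-seq gave a single site among the 8 genes, in an intron of ANK1 on chromosome 8 from 41602726 to 41603097 (hg19, minus strand, 372 bases). The deposited list holds only the 1515 sites that passed the authors' filter, and the depth of the libraries is unknown. The site had 9 reads in the library labelled normal IgG replicate 1, 112 in normal IgG replicate 2, 6 in anti-RBM15 replicate 1 and 184 in anti-RBM15 replicate 2. The values did not follow the labels. At all 1515 sites the library labelled normal IgG replicate 2 had more reads than both normal IgG replicate 1 and anti-RBM15 replicate 1, and the medians over the sites were 8, 198, 8 and 262 in the order above. For this reason no difference between antibodies was tested. With replicate 1 of normal IgG and replicate 2 of anti-RBM15 alone, the site had 9 and 184 reads, and with the other pair 112 and 6.

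**Figure D5:**
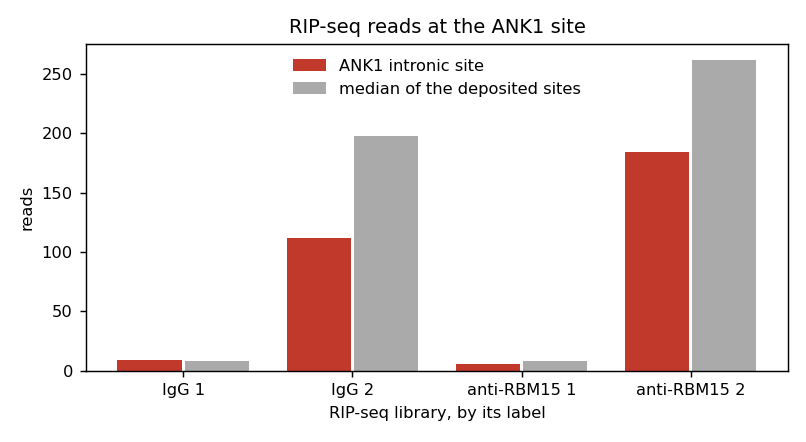
Reads (y) at the intronic ANK1 site, beside the median over the 1515 deposited sites, in the 4 RIP-seq libraries named by their labels (x). The libraries labelled normal IgG 2 and anti-RBM15 2 are high, with 112 and 184 reads, and the others have 9 and 6.

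The site lay in an intron of 23966 bases, 12457 bases from the exon before it and 11139 bases from the exon after it. The usage of these exons did not pass the test, with 159, 269 and 243 reads and a relative log2 fold change of 0.01 for the exon before, and 185, 336 and 279 reads and 0.06 for the exon after. Among the 25 other membrane genes, PIEZO1 and MPP1 each had a site, with 4, 75, 1 and 108 and with 41, 524, 51 and 597 reads in the same order of libraries. Among the 17 paralogs, EPB41L2 had 2 sites, with 2, 80, 4 and 97 and with 41, 487, 57 and 675 reads. The share of all genes with a site was not computed, so the numbers of genes with a site in these lists and among the 8 genes cannot be called high or low.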

How the data were processed

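RNA-seq of MEG-01 cells (1 control library and 2 lines with RBM15 knockdown) and RIP-seq (4 libraries) were analysed. The RNA-seq libraries were paired-end and carried no strand information. The authors mapped them with STAR to GRCh37 under the Ensembl GRCh37.70 annotation and deposited unnormalized counts of reads on exon bins. The submitters' processing notes also name HTSeq 0.6.0. The deposited counts numbered 53.2, 41.6 and 52.5 M reads on 625148 bins, and lines that name no bin (23.2%, 32.01% and 23.5% of reads) entered neither the library sizes nor the tests. Reads across adjacent bins are counted in each, so gene sums count bin hits. The authors mapped trimmed RIP-seq reads to hg19 with STAR, took peaks from the summed coverage, tested these with DESeq, and deposited raw read counts of 1515 selected sites. The deposited tables also hold the authors' fold changes, p-values and adjusted p-values, which were not used.

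The control was identified by the absence of a labelled knockdown. Symbols were matched to 54481 of 62238 genes through a GENCODE annotation on GRCh37 newer than that of the counts. Counts of all bins of a gene were added up, 24887 genes with at least 30 reads were fitted with edgeR 4.0.16 in R 4.3.3 (TMM, quasi-likelihood test, Benjamini-Hochberg adjustment), and bins with at least 30 reads were tested with diffSpliceDGE. CPM values use TMM library sizes. DESeq2 1.42.0 served as an alternative. With 1 control there was 1 residual degree of freedom. Both fits were tested on simulated data. Shares carry 95% Wilson intervals, and a count of 0 an upper limit of 3 counts, computed in Python 3.11.15 with scipy 1.17.1. Named were the 8 genes, listed genes at an adjusted p under 0.01 or otherwise the 4 with the largest absolute change, up to 3 exon bins per gene with the smallest p past the study's limits, and for the 2 members with the largest change the 3 nearest genes. The SPTB and ANK1 bins, EPB41 bins 008 and 023, genes called only at 0.05, the adducins, SPTBN1, HBB, ITGA2B, ITGB3, PPBP, PF4, GP9, CSF1R, ITGAM and CD14 lie outside this rule and were named after their values were seen. The genes and lists were chosen with earlier results of these data known. Some genes that the rule for named genes or the lists held are not reported here by name, but they stayed in the counts and medians.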

Additional observations from a re-analysis of the deposited data

How the results depend on the processing

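Of the 8 membrane genes, 0 passed an adjusted p under 0.01 in the reported fit, with at least 300 reads per gene and with bins that overlap another gene left out. The number was 1 with RLE size factors (SLC4A1), 2 with DESeq2 (SLC4A1 and GYPB), 3 without the filter on low counts (SLC4A1, SPTB and GYPB), and 2 at an adjusted p under 0.05. Of the other membrane genes, 0 passed, and 5 with DESeq2, 2 without the filter and 2 at an adjusted p under 0.05. Over all genes these settings called 86 in the reported fit, 191 with RLE, 525 with DESeq2, 801 without the filter, 0 with at least 300 reads and 112 without overlapping bins. Without the filter all genes had a median of 0.44 on the log2 scale. Of the member exon bins, 5 passed the study's limits, and 7 in the DEXSeq-type model. With at least 300 reads per bin 0 passed, but each of the 5 bins had fewer reads, so this setting could not test them. With each knockdown line alone the 5 bins kept their direction and a fold above 1.2, without a test. They had been chosen in a fit to these same lines, so this adds no independent support. For EPB42 bin 014 the single-line values rest on 0.5 reads added to a control count of 0. The adjusted p passed 0 bins, and 1 in the DEXSeq-type model, SPTB bin 002. No direction reversed in the fold changes of the 8 genes or of the 5 exon bins past the study's limits. The ranges over single lines and settings were 1.85 to 3.24 for SPTB, 2.95 to 3.92 for SLC4A1, 1.15 to 2.14 for GYPB and 0.71 to 1.63 for RHAG, and SPTB was lower without the shRBM15#1 line, at 1.85. Leaving out the 11 bins of the long SPTB end, an alternative chosen after seeing the data, gave 2.82. With 1 library on each side no test could be made. The cause of these differences was not tested. No paired analysis was possible because the control has 1 library and the groups share fewer than 2 replicate numbers.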
